A study of Mus musculus with 8 samples.

Results

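The genes described here make fatty acids and assemble them into triglyceride. They were chosen by name as 34 mouse genes of lipid synthesis, and every non-control array probe whose transcript accession maps to one of them was taken. All 34 had a probe, 46 probes in all, of 20659 genes with a named probe in the series. Of the 34, 33 passed the filter on dim probes and entered the test, which ran on 14476 genes. The other one, Cidec, a lipid droplet fusion protein with 2 probes, was by its brightest probe well above background on 1 of 4 GW4064 arrays and 1 of 4 DMSO arrays and was not tested.

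The cells were primary cultures of kidney proximal tubule cells from male C57/BJ mice aged 6 weeks, grown until confluent from trypsin-digested kidney cortex. In serum-free DMEM, 4 samples received 1 uM GW4064 for 24 h and 4 received an equal amount of DMSO for 24 h. GW4064 is a man-made compound that switches on FXR, a nuclear receptor whose natural ligands are bile acids and whose gene is Nr1h4. Both groups came from the same culture protocol, a pellet said to consist mostly of tubules, so other kidney cells could remain. Nothing in the labels ties the samples of a group to separate animals or cultures, so the p-values rest on a spread among samples that may be technical.

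Fatty acid synthesis starts from cytosolic acetyl-CoA, made from citrate by ATP citrate lyase or from acetate by an acetyl-CoA synthetase. Acetyl-CoA carboxylase and fatty acid synthase build palmitate, elongases and desaturases remodel it, and acyl-CoA synthetases activate it for esterification onto glycerol by acyltransferases, lipins and the diacylglycerol acyltransferases. In liver, the transcription factors SREBP-1c, from Srebf1, and ChREBP, from Mlxipl, drive these genes, LXR induces Srebf1, and FXR activation is known to lower hepatic triglyceride synthesis. The kidney proximal tubule takes up and burns fatty acids and stores surplus as droplets.

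Values below are signals of the brightest kept probe of a gene, set so that 100 is the array's own 75th percentile. Signals of different probes are not compared with each other, since brightness also depends on the probe. Samples are listed from replicate 1 to replicate 4 of each group. Log2 fold changes are GW4064 over DMSO with standard errors from limma (n = 4 arrays per group), and adjusted p is Benjamini-Hochberg over all 14476 genes, with a threshold of 0.05.

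The proximal promoters of 4 members that passed the test are shown as examples. Fasn, Acss2 and Pnpla3 rose and Thrsp fell. The same short letters occur in each, and in 42.5% of the tested genes with a searched window. Whether the letters bear on the direction was not tested. Pnpla3 passed the filter on dim probes through the GW4064 arrays alone. The 4 shown are among 6 members past the threshold found to hold these letters in a search reaching 50 bases past the start. The others were Elovl5 and Acly, and the only match in Acly begins at base 38 after the start, outside windows like those shown. Dgat2 and Scd2 also passed the test but had no window to search. The windows are the 250 bases before the start of the gene, 5′ to 3′ on the gene's strand, from RefSeq on GRCm38.p6. Capitals mark CCAAT or its reverse complement ATTGG, the letters bound by NF-Y, a general promoter factor that works with SREBP. Fasn holds 3 such matches, 2 of which overlap by 2 bases, Thrsp holds 2, and Acss2 and Pnpla3 hold 1 each.
Fasn (chr11:120824548-120824797, minus strand): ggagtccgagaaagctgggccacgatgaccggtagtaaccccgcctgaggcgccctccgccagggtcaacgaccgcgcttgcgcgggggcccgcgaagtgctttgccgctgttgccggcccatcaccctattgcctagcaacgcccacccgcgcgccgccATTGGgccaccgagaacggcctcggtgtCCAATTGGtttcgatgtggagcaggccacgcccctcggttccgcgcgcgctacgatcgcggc
Acss2 (chr2:155517793-155518042, plus strand): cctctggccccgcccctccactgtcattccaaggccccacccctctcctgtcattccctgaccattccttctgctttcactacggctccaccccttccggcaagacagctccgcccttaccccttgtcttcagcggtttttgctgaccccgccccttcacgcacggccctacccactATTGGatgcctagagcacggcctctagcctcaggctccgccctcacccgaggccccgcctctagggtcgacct
Pnpla3 (chr15:84167566-84167815, plus strand): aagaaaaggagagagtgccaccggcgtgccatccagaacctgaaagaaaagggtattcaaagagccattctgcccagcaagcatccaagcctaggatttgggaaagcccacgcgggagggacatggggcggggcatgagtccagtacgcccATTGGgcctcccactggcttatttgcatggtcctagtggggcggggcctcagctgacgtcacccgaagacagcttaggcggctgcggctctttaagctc
Thrsp (chr7:97417551-97417800, minus strand): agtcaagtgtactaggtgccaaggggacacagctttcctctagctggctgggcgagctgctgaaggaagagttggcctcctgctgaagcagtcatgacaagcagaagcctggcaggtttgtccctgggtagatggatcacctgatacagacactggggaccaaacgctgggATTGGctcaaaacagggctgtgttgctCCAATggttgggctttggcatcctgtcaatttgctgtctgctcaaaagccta

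Windows reaching from 250 bases before to 50 bases after the start were held for 29 of the 34 genes. Dgat2 and Scd2 were among those without one, so statements below on members that passed leave them out. Both strands were searched. CCAAT was in the windows of 18 of the 29 genes (62.1%), against 42.5% of the 11511 tested genes that have a window. By test result it was in 4 of 6 members that rose, 2 of 4 that fell and 12 of 18 that did not pass. Those that rose include Pnpla3, which passed the filter on dim probes through the GW4064 arrays alone. The same split was not made over all tested genes. The sterol response element letters TCACNCCAC were in 1 of 29, Mlxipl, against 1.44% of tested genes. The E-box CACGTG, which ChREBP and SREBP can bind, was in 5 of 29 (17.2%), against 11.2%, and of the members that passed only Elovl5 held it. The nuclear receptor half-site AGGTCA was in 7 of 29 (24.1%), against 15.9%, and the only member that passed with it was Acly. The inverted repeat of AGGTCA with 1 base between, which FXR binds, and the direct repeat with 4 bases between, which LXR binds, were in 0 of 29, against 0.00869% and 0% of tested genes. AGGTCA lies within both repeats, so a window with a repeat would also count as one with a half-site. These counts describe letters in a short window.

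Activation of FXR by the treatment was checked on its targets. Slc51a and Slc51b, the basolateral bile acid transporter subunits, had log2 fold changes of 6.91 ± 0.16 and 3.40 ± 0.073 (adjusted p = 1.43e-07 and 1.43e-07 in limma). Fabp6, which binds bile acids inside ileal cells, was at least 61.4-fold higher, with 0 of 4 DMSO arrays well above background, and Nr0b2, a repressor induced by FXR in liver, reached that level on 1 of the 8 arrays and was left untested. Nr1h4 was well above background on all 8 arrays and fell by 0.45 on the log2 scale (adjusted p = 0.000302 in limma). Of 19 proximal tubule markers, all were well above background on at least 1 array and 18 on all 8, among them Lrp2, megalin, and Hnf4a. Their summed signal was 15720 to 17960 with GW4064 and 12151 to 15762 with DMSO. Per array, 61.4% to 65.7% of probes passed the scanner software's test against background, and the 75th percentile of the raw signal was 1412 ± 207 with GW4064 and 1626 ± 187 with DMSO (SD, n = 4 each). The arrays lay on 2 slides, each with 2 GW4064 and 2 DMSO arrays. DMSO samples held the first 2 places on each slide, so place and treatment cannot be told apart.

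With GW4064, 12 of the 33 tested members passed the threshold: 7 rose and 5 fell. The share called was 36.4%, against 20.8% of all genes tested. By direction it was 21.2% higher, against 11.8% of all genes, and 15.2% lower, against 8.95%. The groups did not overlap for 14 members (42.4%, against 26.2% of all genes), 9 of them higher, against 15% of all genes, and 5 lower, against 11.2%. These were the 12 called ones plus Lpin3 and Plin3. A passed test without overlap was seen for 12 members (36.4%), against 19.7% of all genes. The median log2 fold change of the 33 was 0.048, against 0.015 over all genes. Among the 12, the median of the absolute log2 fold change was 0.32, against 0.30 among all called genes. The fitted fold was above 2 for 0 members and above 1.5 for 3: Dgat2 upward, Thrsp downward, and Pnpla3, for which 0 of 4 DMSO arrays were well above background. Under a filter on all 8 arrays, which drops Pnpla3, 6 of 32 members rose and 5 fell, where 3015 of all genes it kept passed in limma. The 20.8% of all genes given above belongs to the main filter and is not the share under this one. With normexp background correction in place of the scanner software's own, 0 members passed in limma, where 120 of all 14476 genes did. Among members Dgat2 came nearest (0.81 on the log2 scale, adjusted p = 0.0592 in limma). Acss2 at 0.38, Agpat2 at 0.19, Elovl5 at 0.29, Acsl4 at -0.30 and Thrsp at -0.88 kept their direction without passing. Fasn was at 0.043, Fads2 at 0.092, Acly at -0.17 and Elovl7 at -0.13, while Pnpla3 at -0.38 and Scd2 at 0.041 turned sign. DMSO replicate 3 had 6 spots with a local background over 1000. With outlying backgrounds replaced, Dgat2, Pnpla3, Fasn and Acss2 rose and Acly, Acsl4, Elovl7, Thrsp and Lpin1 fell, and Fads2, Agpat2, Elovl5 and Scd2 did not pass. RNA came from whole cultures, so fewer cells of a type and less RNA per cell cannot be told apart.

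**Figure D1:**
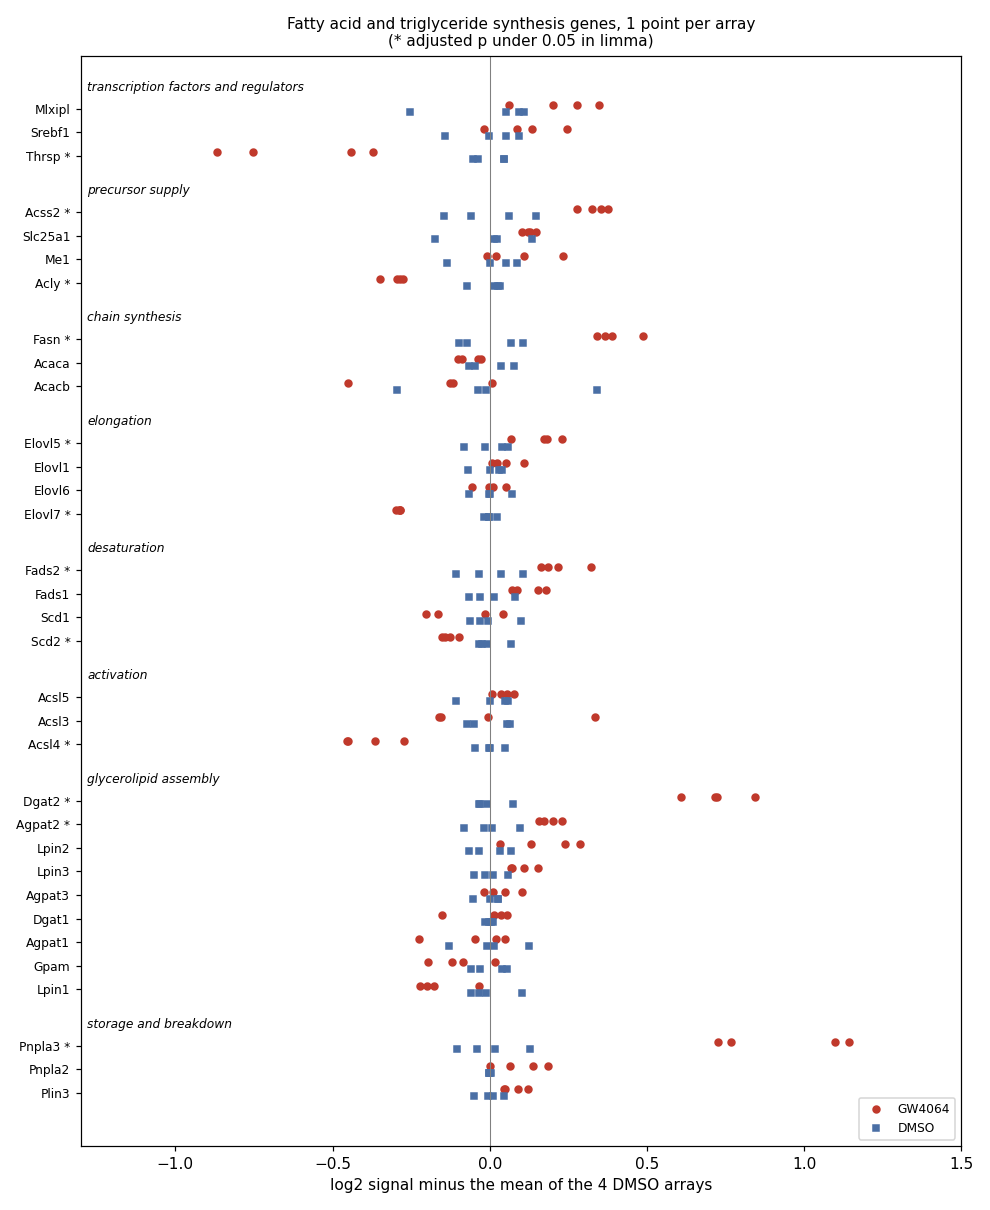
Log2 signal of each of the 33 tested members on each array, minus that gene's mean over the 4 DMSO arrays, grouped by role. Circles are the 4 GW4064 arrays and squares the 4 DMSO arrays; an asterisk marks an adjusted p under 0.05. Pnpla3 and Dgat2 lie farthest right and Thrsp farthest left, and 14 of the 33 do not overlap between groups (42.4%, against 26.2% of all genes). For Pnpla3, 0 of 4 DMSO arrays were well above background.

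Among the regulators, neither lipogenic transcription factor passed the test, and Thrsp fell. Srebf1 encodes the SREBP-1 precursors. Its signals were 21.5, 23.9, 22.2 and 20.0 on the GW4064 arrays, against 20.2, 21.5, 20.9 and 18.3 on the DMSO arrays. The groups overlapped, with a log2 fold change of 0.11 ± 0.07 (adjusted p = 0.299, limma) and a 95% interval of -0.048 to 0.27 before any adjustment. Srebf1 was read by 1 probe, and its 1a and 1c forms were not analysed separately. Mlxipl encodes ChREBP, the glucose-responsive factor. Its brightest probe gave 925, 837, 759 and 883 on the GW4064 arrays, against 754, 776, 611 and 785 on the DMSO arrays, where replicate 3 of DMSO was lowest. The log2 fold change was 0.22 ± 0.094 (adjusted p = 0.137, limma), and its other kept probe differed by -0.098, in the opposite direction. Thrsp, also called Spot 14, is a small nuclear protein that tracks lipogenesis in liver and fat. It gave 2.95, 2.27, 2.09 and 2.81 on the GW4064 arrays, against 3.68, 3.94, 3.73 and 3.94 on the DMSO arrays. Every GW4064 array was below every DMSO array, though the signal was dim. Thrsp fell by 0.61 on the log2 scale with a standard error of 0.11, or 1.52-fold (adjusted p = 0.0059, limma). With normexp and outlying backgrounds replaced its log2 fold change was -0.25 (adjusted p = 0.0121, limma).

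Of the 4 precursor supply genes, Acss2 rose, Acly fell and 2 did not pass. Acss2, the cytosolic and nuclear acetyl-CoA synthetase, gave 366, 353, 341 and 360.5 on the GW4064 arrays, against 270.5, 312, 255 and 294 on the DMSO arrays. The groups were apart, and Acss2 rose 1.26-fold (0.33 ± 0.065 on the log2 scale, adjusted p = 0.00901 in limma). Its other probe, also kept, differed by 0.40. Acly, ATP citrate lyase, gave 2335, 2321, 2352 and 2236 on the GW4064 arrays, against 2899, 2912, 2873 and 2708 on the DMSO arrays. All GW4064 arrays were lower, and Acly fell by 0.30 ± 0.038 on the log2 scale (adjusted p = 0.00108, limma). The other kept probe, listed for another transcript of Acly, differed by -0.30. Slc25a1, which exports citrate from mitochondria, had a log2 fold change of 0.13 ± 0.062, and Me1, the malic enzyme that yields NADPH, one of 0.089 ± 0.069, with 3 of 3 kept probes in that direction. Neither passed (adjusted p = 0.198 and 0.404 in limma).

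In chain synthesis, Fasn rose while the carboxylases did not pass. Fasn, fatty acid synthase, gave 30.4, 28.4, 27.98 and 27.5 on the GW4064 arrays, against 20.6, 22.7, 20.3 and 23.3 on the DMSO arrays. The groups did not overlap, and the rise was 1.32-fold (0.40 ± 0.059 on the log2 scale, adjusted p = 0.00243 in limma). Acaca, the cytosolic acetyl-CoA carboxylase that commits carbon to synthesis, averaged 476 ± 11.9 with GW4064 and 497 ± 23.5 with DMSO (SD, n = 4 each). Its log2 fold change was -0.063 ± 0.044 with a 95% interval of -0.16 to 0.038, and all 3 kept probes were below 0 without passing. Acacb, the mitochondrial isoform whose malonyl-CoA restrains fatty acid oxidation, had -0.17 ± 0.14, and its groups overlapped.

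The elongases split, with 1 higher, 1 lower and 2 not passing. Elovl7, which extends saturated very long chains, gave 376, 379, 378 and 379 on the GW4064 arrays, against 470.1, 461, 457 and 461 on the DMSO arrays. The 4 GW4064 values lay within a narrow band below all DMSO values. Elovl7 fell by 0.29 ± 0.03 on the log2 scale (adjusted p = 0.000371, limma). Elovl5, which extends polyunsaturated chains, gave 598, 593, 552 and 617 on the GW4064 arrays, against 549, 521, 497 and 541 on the DMSO arrays. Its groups were just apart, and it rose 1.12-fold (0.16 ± 0.049, adjusted p = 0.049 in limma), close to the threshold. This call was lost without any 1 array except GW4064 replicate 3 (adjusted p = 0.0306 to 0.114 over the 8 fits, limma), and after quantile normalization, median centring or a slide block. Elovl6, which extends palmitate to stearate, averaged 316 ± 9.72 with GW4064 and 315 ± 12.3 with DMSO (SD, n = 4 each), with a 95% interval for the log2 fold change of -0.096 to 0.098. Elovl1, for saturated very long chains, had 0.048 ± 0.041 (95% interval -0.046 to 0.14).

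Of the 4 desaturases, Fads2 rose and Scd2 fell, both slightly. Fads2, the delta-6 desaturase that starts polyunsaturated fatty acid synthesis, gave 57.0, 58.2, 62.6 and 56.1 on the GW4064 arrays, against 48.9, 53.9, 51.3 and 46.5 on the DMSO arrays. It rose 1.17-fold (0.22 ± 0.057, adjusted p = 0.0268 in limma) with no overlap. The call was lost without GW4064 replicate 1, 2 or 3 or DMSO replicate 1 or 4 (adjusted p = 0.0242 to 0.0659 over the 8 fits, limma). Fads1, the delta-5 desaturase and its neighbour in gene order, had 0.12 ± 0.046 (adjusted p = 0.098, limma), and its groups overlapped. Scd2, a stearoyl-CoA desaturase that makes monounsaturated fatty acids, gave 2884, 2936, 2902 and 2997 on the GW4064 arrays, against 3152, 3354, 3129 and 3186 on the DMSO arrays. It fell by 0.13 ± 0.036 on the log2 scale (adjusted p = 0.039, limma). That call was lost without any 1 array except GW4064 replicate 4 (adjusted p = 0.0425 to 0.103 over the 8 fits, limma), with a slide block and after median centring. Scd1, its paralog, had -0.085 ± 0.065 (95% interval -0.23 to 0.065). The Scd genes are alike in sequence, so how far each probe separates them is uncertain.

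**Figure D2:**
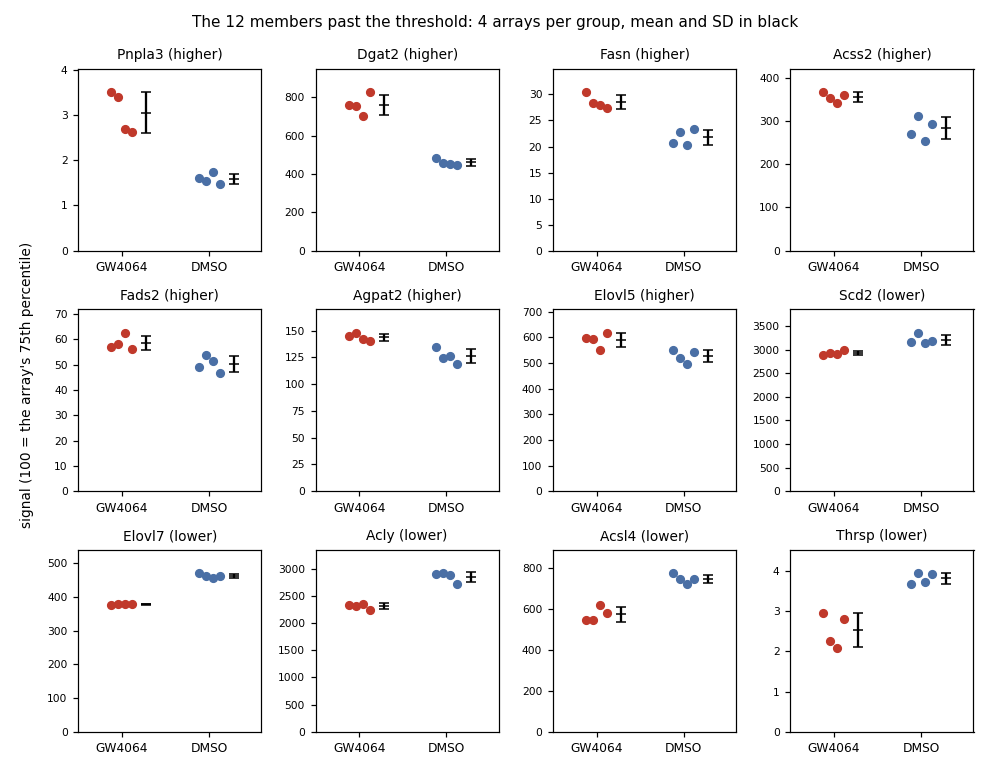
Signal of the 12 members past the threshold, where 100 is the array's 75th percentile and each vertical axis starts at 0. Points are arrays, with 4 GW4064 arrays left of 4 DMSO arrays, and black marks give the mean and SD. The groups do not overlap in any panel, which also holds for 26.2% of all genes tested. For Pnpla3, 0 of 4 DMSO arrays were well above background, and it passed the filter through the GW4064 arrays alone.

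Of the acyl-CoA synthetases, Acsl4 fell and the other two did not pass. Acsl4, which prefers arachidonic acid and feeds phospholipids, gave 548, 547, 620.4 and 582 on the GW4064 arrays, against 776, 748, 726 and 749 on the DMSO arrays. The groups were well apart, and it fell by 0.39 ± 0.05 on the log2 scale, or 1.31-fold (adjusted p = 0.00114, limma). Acsl5, linked to triglyceride synthesis in liver and intestine, had 0.044 ± 0.045 (95% interval -0.059 to 0.15). Acsl3, a droplet-associated isoform, gave 36.4, 36.5, 40.6 and 51.3 on the GW4064 arrays, against 39.3, 42.6, 38.7 and 42.3 on the DMSO arrays. GW4064 replicate 4 was the highest of the 8, and the log2 fold change of 0.0028 ± 0.11 changed sign under other scalings.

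Glycerolipid assembly held the member with the lowest adjusted p, Dgat2, at its final step. Dgat2, a diacylglycerol acyltransferase that makes triglyceride from newly made fatty acids, gave 759, 755, 700.4 and 825 on the GW4064 arrays, against 484, 457, 449.8 and 449 on the DMSO arrays. Every GW4064 array was far above every DMSO array. Dgat2 rose 1.65-fold (0.72 ± 0.055 on the log2 scale, adjusted p = 7.28e-05 in limma). Dgat1, the unrelated enzyme for the same reaction, gave 165, 168, 170.1 and 147 on the GW4064 arrays, against 163, 165, 164 and 162 on the DMSO arrays. Its log2 fold change was -0.011 ± 0.05 with a 95% interval of -0.13 to 0.10 before any adjustment. The difference between the 2 genes was not tested. Agpat2, a lysophosphatidic acid acyltransferase whose loss causes lipodystrophy, gave 145, 148, 142 and 141 on the GW4064 arrays, against 135, 124, 127 and 119 on the DMSO arrays. It rose 1.14-fold (0.19 ± 0.045, adjusted p = 0.0203 in limma), and the call was lost without GW4064 replicate 1 or 2 or DMSO replicate 2 or 4 (adjusted p = 0.0118 to 0.0588 over the 8 fits, limma).

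The other 6 assembly genes did not pass. Gpam, the mitochondrial glycerol-3-phosphate acyltransferase that starts the pathway, averaged 5.49 ± 0.339 with GW4064 and 5.87 ± 0.224 with DMSO (SD, n = 4 each) on a dim probe, with -0.096 ± 0.053 on the log2 scale. Agpat1 and Agpat3, paralogs of Agpat2, had -0.051 ± 0.075 and 0.036 ± 0.04. The lipins turn phosphatidic acid into diacylglycerol. Lpin1 had -0.16 ± 0.056 and passed without GW4064 replicate 1 and with normexp and outlying backgrounds replaced, Lpin2 had 0.17 ± 0.063 and passed without GW4064 replicate 4, and neither passed with all arrays (adjusted p = 0.0814 and 0.0899 in limma). Lpin3 gave 207, 213, 201 and 201 on the GW4064 arrays, against 199, 185, 193 and 189.6 on the DMSO arrays, with no overlap and 0.10 ± 0.039 on the log2 scale (adjusted p = 0.108, limma).

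In storage and breakdown, Pnpla3 was higher on a dim probe, and the other tested members did not pass. Pnpla3, a droplet-bound lipase and acyltransferase known as an SREBP-1c target in liver, gave 3.5, 3.39, 2.69 and 2.62 on the GW4064 arrays, against 1.6, 1.54, 1.73 and 1.47 on the DMSO arrays. The groups were apart, but no DMSO array was well above background, so the gene passed the filter through the GW4064 arrays alone. The GW4064 mean was 1.91-fold above, per DMSO array, the higher of its own signal and the lowest signal among spots well above background. On each DMSO array its own dim signal was the higher of these. The 1.91-fold figure therefore equals the ratio of the measured means, carries their error and is not a lower limit. The test was of the measured log2 fold change of 0.93 (adjusted p = 0.000569, limma), in a gene kept only for its GW4064 arrays. With normexp and outlying backgrounds replaced the log2 fold change was 0.43 (adjusted p = 0.0105, limma). A second Pnpla3 probe, well above background on 1 of 4 GW4064 and 0 of 4 DMSO arrays, did not pass the filter. Pnpla2, adipose triglyceride lipase, which starts droplet breakdown, gave 624, 658, 597 and 679 on the GW4064 arrays, against 598, 596, 596 and 599 on the DMSO arrays, and Plin3, a coat protein of small droplets, gave 1974, 1876, 1933 and 1872 on the GW4064 arrays, against 1872, 1809, 1826 and 1752 on the DMSO arrays. Plin3 did not overlap between groups, Pnpla2 did, and neither passed (0.097 ± 0.045 and 0.076 ± 0.037 on the log2 scale, adjusted p = 0.173 and 0.187 in limma).

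**Figure D3:**
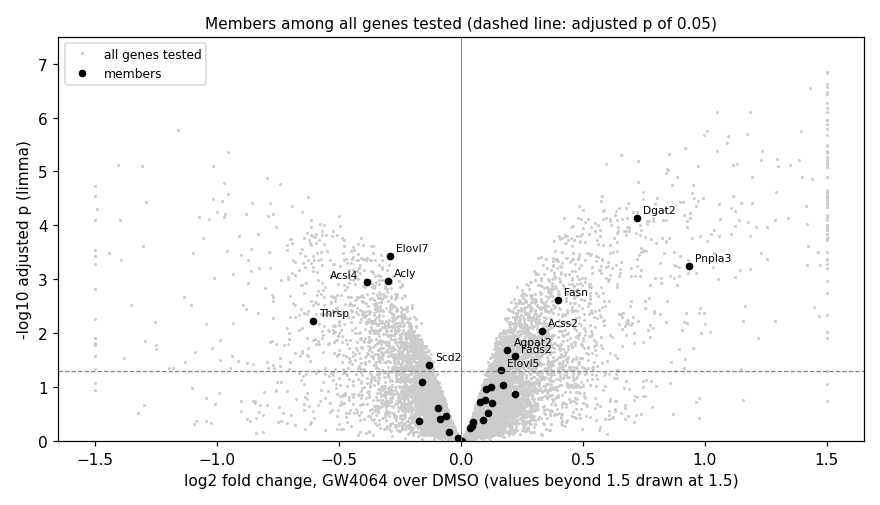
Log2 fold change, GW4064 over DMSO, against -log10 of limma's adjusted p for all 14476 genes (grey) and the 33 members (black, named where they passed). The dashed line is the threshold of 0.05, and 7 members lie above it on the right and 5 on the left, all within the range of the other genes. Pnpla3, on the right, had 0 of 4 DMSO arrays well above background.

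The 2 slides gave separate estimates from 2 arrays per group each. All 12 called members had the same sign on both slides. Their groups did not overlap, which fixes that sign in advance, so this is no separate check. Of the 33 tested, 28 had the same sign on both. Dgat2 differed by 0.69 on slide 1 and 0.76 on slide 2, Fasn by 0.44 and 0.35, and Acss2 by 0.31 and 0.36 on the log2 scale. Elovl7 differed by -0.30 and -0.28, Acly by -0.32 and -0.28, Thrsp by -0.56 and -0.66, and Acsl4 by -0.48 and -0.30. Tested on slide 1 alone, 966 of all genes passed in limma, among them Dgat2, Acly and Acsl4. Pnpla3 passed too, though its DMSO arrays were not well above background. On slide 2 alone 0 members passed, where 220 of all genes did. With slide as a block, 6 members rose and 4 fell, where 2856 of all genes passed. Elovl5 and Scd2 no longer passed.

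**Figure D4:**
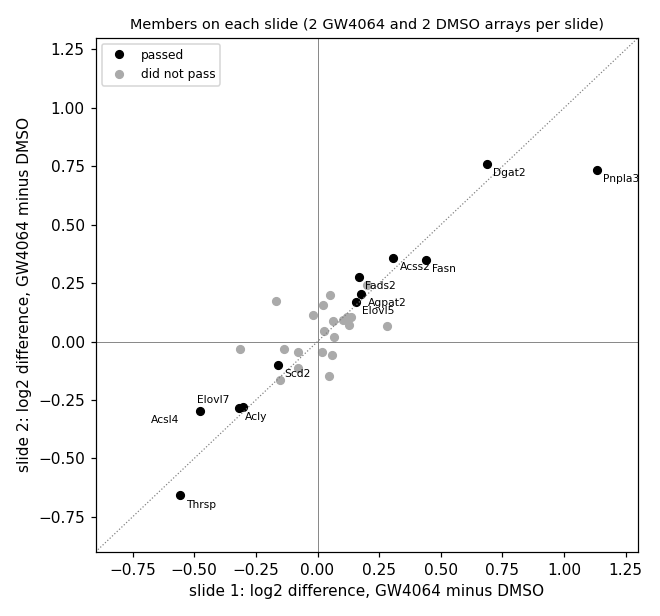
Log2 difference, GW4064 minus DMSO, of the 33 tested members on slide 1 and on slide 2, each from 2 arrays per group. Black points passed the test on all 8 arrays and lie near the dotted line of equal difference, except Pnpla3 (1.13 and 0.73), for which 0 of 4 DMSO arrays were well above background; grey points did not pass.

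Other genes of the pathway, 66 taken from a list written with earlier results of these data known, moved in both directions. Of 61 tested, 10 rose, 6 fell and 45 did not pass. The share called was 26.2%, against 20.8% of all genes, and the median log2 fold change was 0.045, against 0.015. Elovl3, Elovl4, Acsl6, Plin1 and Cidea did not pass the filter on dim probes.

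The largest rise on this list was Mogat2, a monoacylglycerol acyltransferase that supplies diacylglycerol to the same last step as Dgat2. Mogat2 gave 286, 262, 259 and 276 on the GW4064 arrays, against 142, 155, 131 and 149 on the DMSO arrays. It rose 1.88-fold (0.91 ± 0.06, adjusted p = 3.68e-05 in limma), with all GW4064 arrays far above the DMSO arrays. Mogat2 and Dgat2 belong to the same enzyme family and are neighbours on the chromosome, with 0 protein-coding genes between them in the GRCm38.p6 gene order. Of the 9 tested genes among other acyltransferases and phosphatases, Lpgat1, a lysophospholipid acyltransferase, fell by 0.24 ± 0.061 (adjusted p = 0.0258, limma), with overlapping groups.

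Droplet genes had 3 of 12 higher (25%, against 11.8% of all genes) and 0 lower (against 8.95%). Plin2, the main droplet coat protein outside fat cells, gave 3384, 3118, 3394 and 3172 on the GW4064 arrays, against 2578, 2719.7, 2839 and 2678 on the DMSO arrays. All GW4064 arrays were higher, a rise of 1.21-fold (0.27 ± 0.047, adjusted p = 0.00483 in limma). Mgll, monoacylglycerol lipase, rose 1.4-fold (0.48 ± 0.061), with 3 of 3 kept probes upward, and Bscl2, seipin, which shapes new droplets, rose 1.16-fold (0.22 ± 0.037). The hormone-sensitive lipase Lipe and the lipase activator Abhd5 did not pass.

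In transcriptional control 1 of 13 rose and 1 fell, a share called of 15.4%, against 20.8% of all genes. Nr1h3, which encodes LXR-alpha, gave 150.1, 142, 140.2 and 144 on the GW4064 arrays, against 106, 113, 111 and 110.3 on the DMSO arrays. It rose 1.31-fold (0.39 ± 0.039, adjusted p = 0.000295 in limma) with no overlap and 2 of 2 kept probes upward. Pparg, the fat cell regulator, fell by 0.20 ± 0.039 (adjusted p = 0.0095, limma). Srebf2, Scap, Insig1 and Insig2, the sterol-sensing machinery around SREBP, did not pass, nor did Nr1h2, which encodes LXR-beta.

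Among cofactor and precursor genes, Pgd, a source of NADPH in the pentose phosphate pathway, rose 1.18-fold (0.24 ± 0.038, adjusted p = 0.00377 in limma). Mid1ip1, a Thrsp paralog that activates acetyl-CoA carboxylase, fell by 0.28 ± 0.047 (adjusted p = 0.00433, limma), its groups apart at 1854, 1928, 1952 and 2026 on the GW4064 arrays, against 2489, 2407, 2269.7 and 2259.6 on the DMSO arrays. Acss1, the mitochondrial acetate-activating enzyme, fell by 0.28 ± 0.072. Among elongation partners Hacd4, a 3-hydroxyacyl-CoA dehydratase, fell by 0.35 ± 0.054 (adjusted p = 0.00301, limma) and Tecr, the enoyl reductase of the cycle, rose 1.13-fold. In mitochondrial fatty acid synthesis Oxsm and Mecr rose 1.16-fold and 1.11-fold, Oxsm with 1 of 2 kept probes upward. Acsbg1, an acyl-CoA synthetase best known in brain, rose 1.35-fold, and Acsl1, the main isoform of liver, heart and fat, fell by 0.21 ± 0.053.

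Of these pathway calls, 7 were lost in limma on leaving out single arrays. Oxsm lost its call without any GW4064 array or DMSO replicate 2 or 4, and Tecr without any GW4064 array or DMSO replicate 2, 3 or 4 (highest adjusted p = 0.0863 and 0.0913). Mecr lost it without GW4064 replicate 1, 2 or 3 or DMSO replicate 1 or 4, and Acsl1 without GW4064 replicate 2 or 3 or DMSO replicate 2 or 4 (0.0935 and 0.0707). Acss1 and Acsbg1 lost it without GW4064 replicate 1, 3 or 4 or DMSO replicate 1, 2 or 4, and Lpgat1 without GW4064 replicate 1, 3 or 4 or DMSO replicate 2, 3 or 4 (0.0744, 0.0768 and 0.0674).

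**Figure D5:**
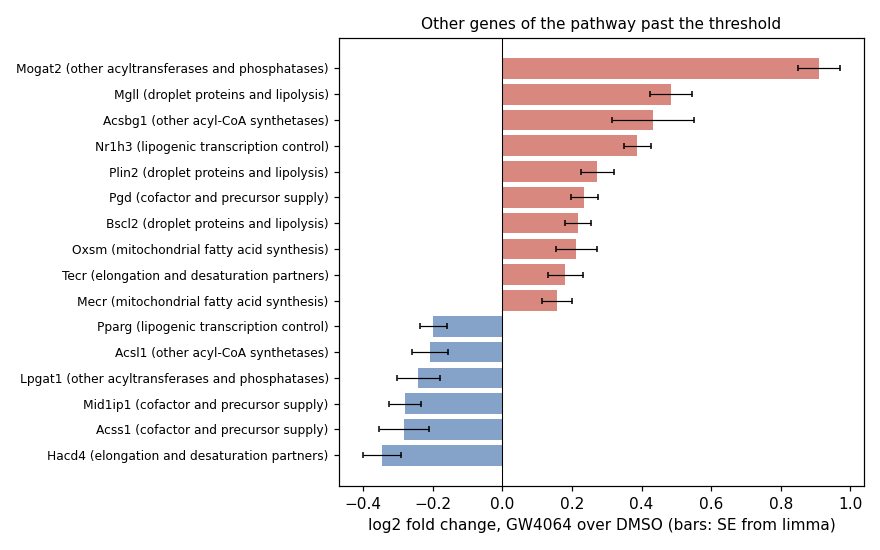
Log2 fold change, GW4064 over DMSO, of the 16 other pathway genes past the threshold, with limma's standard errors and the list each belongs to. Mogat2 (0.91) stands above the rest, and Hacd4 (-0.35) is the lowest.

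Markers of other cells were measured beside these genes, since fat and blood cells also express many of them. Of 8 fat cell markers, Adipoq, Lep, Plin1, Cfd and Adrb3 were not well above background on any array, while Fabp4, Pparg and Retn were on all. The summed signal of the list was 95.2 to 106.5 with GW4064 and 96.9 to 107.9 with DMSO. Most of it came from Fabp4, at 54.9 with GW4064 and 52.1 with DMSO, and Pparg, at 41.5 and 47.7. Of 12 leukocyte and macrophage markers with a probe, all were well above background on every array, and 5 rose (41.7%, against 11.8% of all genes). Their summed signal was 1469 to 1672 with GW4064 and 1120 to 1273 with DMSO, and most of that difference came from Csf1r, at 874 with GW4064 and 520.5 with DMSO. Ptprc, the pan-leukocyte marker, averaged 5.02 with GW4064 and 13.2 with DMSO and did not pass. Its DMSO arrays gave 6.13, 5.82, 6.21 and 34.7, so that DMSO mean was led by replicate 4 alone. Of the fibroblast and pericyte markers, 4 of 9 tested were higher (44.4%, against 11.8% of all genes). They summed to 7903 to 9569 with GW4064 and 5771 to 7374 with DMSO. Most of that difference came from Tagln, at 4266 with GW4064 and 2953 with DMSO, and Acta2, at 2025 with GW4064 and 1440.2 with DMSO. Of the 10 on this list, Lum was not well above background on any array. Of the endothelial markers, 4 of 10 tested were higher (40%, against 11.8% of all genes). They summed to 631 to 710.2 with GW4064 and 552 to 643 with DMSO, with Tek not well above background on any array. Of 10 markers of other nephron segments and podocytes, 8 were tested, 1 rose (12.5%, against 11.8% of all genes) and 2 fell (25%, against 8.95%). Their sum was 764 to 925 with GW4064 and 653 to 817 with DMSO, and Calb1 was not well above background on any array. Proximal tubule markers had the highest share called of these lists, with 13 of 18 tested higher (72.2%, against 11.8% of all genes) and 1 lower (5.56%, against 8.95%). The lower one was Kap, at 3060.5 with GW4064 and 4941 with DMSO (adjusted p = 0.00301, limma). A sum over a list is led by its brightest probes. The part of the leukocyte, fibroblast, endothelial and tubule shifts in the results above was not tested.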

How the data were processed

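Total RNA of 8 samples was labelled with Cy3 and hybridised to 1-colour Agilent arrays, 4 per group. The deposited scanner files hold spot intensity, which Agilent Feature Extraction 10.7.3.1 had background-corrected, per the file headers. Feature Extraction 10.7 and limma are named in the submitters' processing notes. The authors' deposited value table is on a log2 scale with a median of 6.598 in every column; its centring and any later scaling are not given in the sources used here, and it served only as an alternative.

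Control spots and spots marked as outliers were left out. Log2 processed signals were averaged per probe, and each array's 75th percentile was subtracted. Probes were named by transcript accession through RefSeq genes of GRCm38.p6 (27234 of 39429, 69.1%). Kept probes were well above background on 4 or more of 8 arrays, on at least 50% of their spots, with an unmarked spot on every array. The brightest kept probe stood for a gene. limma 3.58.1 in R 4.3.3 tested GW4064 against DMSO over 14476 genes with Benjamini-Hochberg adjustment at 0.05, and the fit was tested on simulated data. The number of arrays limits the precision.

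The members, the pathway and marker lists and the rule for named genes (all members, then listed pathway genes past the threshold and the known FXR targets) were chosen with earlier results of these data known. A first run took the percentile over spots and kept a probe if any of its spots was well above background. Both definitions were changed after its counts had been seen, to follow an earlier processing of these files, and stand among the alternatives. Others changed the background correction, scaling, filter, choice of probe, blocks, slide, spread estimate and source of values, or left out each array. Deviations of same-numbered GW4064 and DMSO samples had correlations of -0.13, -0.029, 0.19 and -0.022, positive only for replicate 3. Differently numbered samples gave -0.20 to 0.20. The numbers were not taken as pairs in the main fit, and a replicate block stands among the alternatives.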

Additional observations from a re-analysis of the deposited data

Results flagged for a closer look

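Of 106 sets of 4 arrays examined (1 gene in 1 group each), 1 held an array far from the other three by Dixon's test, 0.943%, where chance marks about 1 in 20. It was Mlxipl on DMSO replicate 3, with a signal of 611.1 where the other DMSO arrays had 754.3 to 784.7. Without that array Mlxipl did not pass the test either.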

How the results depend on the processing

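Of 25 alternatives, 8 left out 1 array and 17 changed a setting. Over named genes they gave 1323 values: 1106 kept direction and side of the threshold, 178 lost the call without changing sign, 4 gained it and 35 changed sign. Called genes that changed sign, such as Pnpla3 and Scd2 with normexp, are in the last count only. A slide block and a scan date block are both counted, although slide and scan date coincided and the fits were the same. Called genes numbered 3006 in all, with 7 members higher and 5 lower. The percentile over spots together with the any-spot filter, the definitions of the first run, called 3015 genes and 7 and 5 members, and the percentile over spots alone called 3013. Leaving out each array gave 2076 to 2827 genes, 4 to 7 members higher and 4 to 5 lower. Dgat2, Fasn, Acss2, Acly, Acsl4, Elovl7 and Thrsp passed in all 8 of these fits. Pnpla3 did as well, but it passed the filter on dim probes through the GW4064 arrays alone. Normexp called 120 genes, with 0 members higher and 0 lower. On DMSO replicate 3, 6 spots had a local background over 1000, up to 53526. With outlying backgrounds replaced, an alternative chosen after seeing the data, 2161 genes, 4 members higher and 5 lower were called, with Lpin1 among the lower in place of Scd2, as also without GW4064 replicate 1. Without GW4064 replicate 4, Lpin2 was among the 7 higher in place of Elovl5. Slide 1 alone called 966 genes, 2 members higher and 2 lower, and slide 2 alone 220 genes, 0 and 0, with fewer arrays in each fit. The replicate block called 2322 genes, 8 members higher, Mlxipl added, and 4 lower, Scd2 lost, and not every sample correlated best with its own number. The slide block called 2856 genes, 6 and 4. Pnpla3 could not be tested under the filter on all 8 arrays. Sign changes with normexp were Srebf1 -0.17, Scd1 0.033, Scd2 0.041, Acaca 0.092, Dgat1 0.052, Pnpla3 -0.38, Agpat1 0.00259, Acsl3 -0.18, Oxsm -0.081, Mecr -0.044 and Lpgat1 0.047 on the log2 scale. With backgrounds replaced they were Elovl1 -0.023, Elovl6 -0.00459, Gpam 0.034 and Acsl3 -0.055. Elovl6 and Acsl3 gave -0.0127 and -0.011 with quantile normalization, -0.014 and -0.012 with median centring, and -0.015 and -0.011 in the authors' deposited table. Slide 1 alone gave Elovl1 -0.020, Dgat1 0.020, Agpat1 0.045 and Acsl3 -0.17, and slide 2 alone Elovl6 -0.058. Leaving out each array in turn gave ranges across 0 for Acsl3 (-0.11 to 0.057), Elovl6 (-0.021 to 0.024), Dgat1 (-0.034 to 0.036) and Agpat1 (-0.094 to 0.0072). The causes of these sign changes were not tested. Dim probes, Pnpla3 and Thrsp among them, lie near background, which limits how well their folds are known.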
